A study of Homo sapiens with 6 samples.

Results

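The genes described here are 10 members of the aldehyde dehydrogenase (ALDH) family, ALDH1A1, ALDH1A3, ALDH1B1, ALDH1L1, ALDH2, ALDH3A1, ALDH3A2, ALDH3B1, ALDH6A1 and ALDH7A1, chosen by symbol and all found among 58828 symbols. The data were RNA sequencing libraries of xenografts grown from the human liver cancer line MHCC97L, an established cell line of hepatocellular carcinoma, with 3 libraries from tumours given recombinant human lumican (rhLUM) and 3 from tumours without it (Ctrl). Lumican is a secreted proteoglycan of the extracellular matrix, and the comparison asks which tumour transcripts differ when it is supplied. The tumours are of 1 cell line grown in a host animal. The sources used here do not give the host's strain or age, the dose, route or duration of rhLUM, or whether libraries A, B and C of a group are different tumours. For that reason p-values measure no more than the spread among these 6 samples, and this may be technical.

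Aldehyde dehydrogenases oxidise aldehydes to carboxylic acids with NAD or NADP as the electron acceptor. They clear reactive aldehydes from ethanol, lipid peroxidation and amino acid breakdown, and some of them make retinoic acid, the ligand of the retinoic acid receptors. The liver is a main site of acetaldehyde oxidation, and ALDH activity is widely used as a marker of stem-like cells in carcinomas.

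With rhLUM, 7 of the 10 members rose, none fell, 1 did not pass the test and 2 were too low to be tested. The cytosolic enzymes of retinaldehyde and aromatic aldehydes, ALDH1A1 and ALDH3A1, were the most abundant of the family and rose 1.49-fold and 1.99-fold (ratios of mean TPM, a length-normalised share of all transcripts in a library). ALDH6A1 of valine breakdown and ALDH3A2 of fatty aldehyde oxidation rose 2.50-fold and 2.11-fold. ALDH7A1 of lysine breakdown was at 51.0 ± 4.17 TPM in rhLUM and 53.3 ± 3.63 TPM in Ctrl tumours (SD, n = 3 each). The test was limma on log2(TPM + 1) over all 14781 genes whose mean reached 1 TPM, with Benjamini-Hochberg adjustment and an adjusted p under 0.05 as the threshold. Of all these genes 44.5% were called higher and 22.3% lower, 66.8% in either direction, beside 7 of 8 tested members called higher (87.5%). The same 7 members had all rhLUM libraries above all Ctrl libraries, as did 47.0% of all genes, while 24.3% of all genes had them all below. A ratio of means of at least 1.5 was reached by 4 of the 8 tested members and by 26.0% of all genes, and a ratio of at least 2 by 2 members, ALDH3A2 and ALDH6A1, and by 9.74% of all genes. The median log2 fold change was 0.69 over the 8 tested members and 0.16 over all genes tested.

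Sequence from just before the start of transcription is shown for 3 members that rose together, ALDH1A1, ALDH3A2 and ALDH6A1, to set their promoters side by side. It is RefSeq sequence on GRCh38.p14, 5′ to 3′ on the strand of the gene, from 250 bases before the RefSeq start and ended before the first base of that window that the GENCODE release 29 annotation puts in any exon of the gene. For ALDH3A2 the window before the more upstream of 2 RefSeq starts is given. The RefSeq start of ALDH1A1 used here lies inside the longer span that GENCODE gives the gene. Capitals mark CCAAT, the sequence read by the NF-Y complex, or its reverse complement ATTGG.
ALDH1A1 (chr9:72953057-72953303, minus strand): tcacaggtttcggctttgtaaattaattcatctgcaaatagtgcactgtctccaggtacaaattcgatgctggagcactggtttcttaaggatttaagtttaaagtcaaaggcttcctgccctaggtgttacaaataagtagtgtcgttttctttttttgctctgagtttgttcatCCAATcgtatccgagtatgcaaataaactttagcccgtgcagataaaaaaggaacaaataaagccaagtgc
ALDH3A2 (chr17:19647886-19648135, plus strand): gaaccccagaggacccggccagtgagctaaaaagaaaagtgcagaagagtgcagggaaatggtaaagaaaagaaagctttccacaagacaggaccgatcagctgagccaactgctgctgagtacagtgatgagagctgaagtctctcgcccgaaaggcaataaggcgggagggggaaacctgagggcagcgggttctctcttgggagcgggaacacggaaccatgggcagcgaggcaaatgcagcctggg
ALDH6A1 (chr14:74084494-74084703, minus strand): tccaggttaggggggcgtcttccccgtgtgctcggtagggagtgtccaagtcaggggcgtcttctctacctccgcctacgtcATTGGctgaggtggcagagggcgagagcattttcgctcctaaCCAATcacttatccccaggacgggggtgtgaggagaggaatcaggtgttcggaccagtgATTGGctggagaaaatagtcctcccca

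In the full 250 bases before its start ALDH6A1 held 4 matches to CCAAT on either strand and ALDH1A1 held 1, while ALDH3A2 held none in the printed window and 1 in the window of its second start. A total of 8 of the 10 members had an entry in the promoter table, in 11 windows, and ALDH2 and ALDH3A1 were not among them. ALDH1B1 and ALDH3B1, which also rose, had entries that are not printed here. CCAAT was found in 6 of the 11 windows and in 32.0% of 35114 promoter windows of the same length. The 6 were those of ALDH1A1, ALDH1A3, ALDH1B1, ALDH6A1, ALDH7A1 and the second start of ALDH3A2. Only ALDH1A1 and ALDH6A1 held a match before the first base that GENCODE puts in an exon of the gene. The matches of the others, and 1 of the 4 of ALDH6A1, lay at or past that base. So did the matches to GCGTG and TATAAA given below. Of these genes ALDH7A1 was not called and ALDH1A3 was near 0 TPM, while the windows of ALDH3B1, which rose, held no match. GCGTG, the core of the response element of the aryl hydrocarbon receptor, was found in 2 of the 11 windows, those of ALDH1A3 and of the second start of ALDH3A2, against 32.2% of all. TGACNNNGC, the core of the antioxidant response element, was found in none of the 11 windows, against 10.9% of all, and TATAAA in 1 window, of ALDH1L1, against 10.7%. Both strands were searched, the motifs do not overlap in these windows, and a match is a description of the letters only.

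ALDH1A1, whose cytosolic enzyme oxidises retinaldehyde to retinoic acid, was the most abundant family member in every library. It lies on chromosome 9 at 72900662 to 73080442 (GRCh38, minus strand, ENSG00000165092.12, a protein-coding gene). It had 1597, 1602 and 1611 TPM in rhLUM A, B and C, against 1083, 1073 and 1079 TPM in Ctrl A, B and C. The 3 rhLUM libraries lay above the 3 Ctrl libraries with a gap far wider than the spread within either group. Its log2 fold change was 0.57 with an SE of 0.01 (limma adjusted p = 8.89e-08). By mean TPM it stood at rank 88 of 58515 symbols in rhLUM tumours and at rank 118 in Ctrl tumours. It has also been used as a marker of stem-like liver cancer cells, and a change in such cells was not tested here.

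ALDH1A3, another retinaldehyde dehydrogenase, was near 0, listed at 0, 0.02 and 0.45 TPM in rhLUM A, B and C and at 0.02, 0 and 0.03 TPM in Ctrl A, B and C. The highest value stood in rhLUM C alone, the groups overlapped, and the gene was under the filter at a mean of 1 TPM. ALDH1A2, which also makes retinoic acid and was not among the 10 members, had 1.63, 0.19 and 0.60 TPM in rhLUM, against 2.80, 0.73 and 1.08 TPM in Ctrl libraries. Its groups overlapped, and its log2 fold change of -0.48 had a 95% interval of -1.40 to 0.44 (limma adjusted p = 0.305). ALDH1A1 transcripts thus exceeded those of the other genes of the ALDH1A class per length in both groups.

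ALDH1B1 and ALDH2 encode mitochondrial enzymes that oxidise acetaldehyde, of which ALDH2 is the main one in ethanol metabolism. ALDH2, on chromosome 12 at 111766887 to 111817529 (GRCh38, plus strand), had 181, 184 and 188 TPM in rhLUM A, B and C, against 138, 134 and 129 TPM in Ctrl A, B and C. The groups did not overlap, and the log2 fold change was 0.46 with an SE of 0.03 (limma adjusted p = 1.34e-05). This was the smallest of the 7 rises, and it stood at 0.30 after median-of-ratios scaling, at 0.11 after upper quartile scaling and at 0.09 once trends with length and GC content were removed, still past the threshold in each (highest adjusted p = 0.0352).

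ALDH1B1, on chromosome 9 at 38392664 to 38398661 (GRCh38, plus strand), had 30.0, 28.4 and 30.4 TPM in rhLUM A, B and C, against 15.9, 16.6 and 16.8 TPM in Ctrl A, B and C. Here too the groups did not overlap, with a log2 fold change of 0.81 (SE 0.05, limma adjusted p = 6.70e-06). Within a library, the ratio of ALDH1B1 to ALDH2 does not depend on how libraries are scaled. It was 0.154 to 0.166 in rhLUM libraries and 0.115 to 0.130 in Ctrl libraries, without overlap. With 3 libraries a group an exact permutation test of such a ratio can reach no p under 0.1, and the ratios are given without a test.

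ALDH3A1 and ALDH3A2 are neighbours on chromosome 17, with 60385 bases between them. ALDH3A1, at 19737984 to 19748943 (GRCh38, minus strand), encodes a cytosolic enzyme of aromatic and medium-chain aldehydes. It had 643, 621 and 618 TPM in rhLUM A, B and C, against 319, 301 and 324 TPM in Ctrl A, B and C. The rhLUM libraries lay far above the Ctrl libraries, with a log2 fold change of 0.99 (SE 0.03, limma adjusted p = 5.22e-07). It was the second most abundant ALDH gene in both groups.

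ALDH3A2, at 19648136 to 19677598 (GRCh38, plus strand), encodes the fatty aldehyde dehydrogenase of the endoplasmic reticulum, which is lost in Sjögren-Larsson syndrome. It had 165, 169 and 167 TPM in rhLUM A, B and C, against 81.9, 78.0 and 77.4 TPM in Ctrl A, B and C. The groups did not overlap, and the log2 fold change was 1.07 with an SE of 0.03 (limma adjusted p = 2.99e-07). The ratio of ALDH3A1 to ALDH3A2 was 3.67 to 3.89 in rhLUM libraries and 3.85 to 4.19 in Ctrl libraries, and these ranges overlapped. The next tested protein-coding genes on either side of the pair were also higher, SLC47A1 by 1.05 (limma adjusted p = 2.84e-04) and ULK2 by 0.63 (limma adjusted p = 0.00494) on the log2 scale. These flanking genes were looked up after the values of the pair were known, and 44.5% of all genes tested were called higher. Beside other members, TMC1 next to ALDH1A1 (-0.80) and NDUFS8 next to ALDH3B1 (-0.41) were called lower. ACAD10 next to ALDH2, ZXDC next to ALDH1L1 and ZNF608 next to ALDH7A1 were not called. The other flanking genes of the members were called higher.

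ALDH3B1, which encodes a membrane-bound enzyme of medium- and long-chain aldehydes, had 23.0, 25.7 and 22.6 TPM in rhLUM A, B and C, against 16.9, 15.2 and 16.3 TPM in Ctrl A, B and C. It lies on chromosome 11 at 68008578 to 68029282 (GRCh38, plus strand). The groups did not overlap, and the log2 fold change was 0.53 with an SE of 0.07 (limma adjusted p = 3.03e-04). Its close relative ALDH3B2, with which reads can be shared, was listed at 0 in all 6 libraries.

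**Figure D1:**
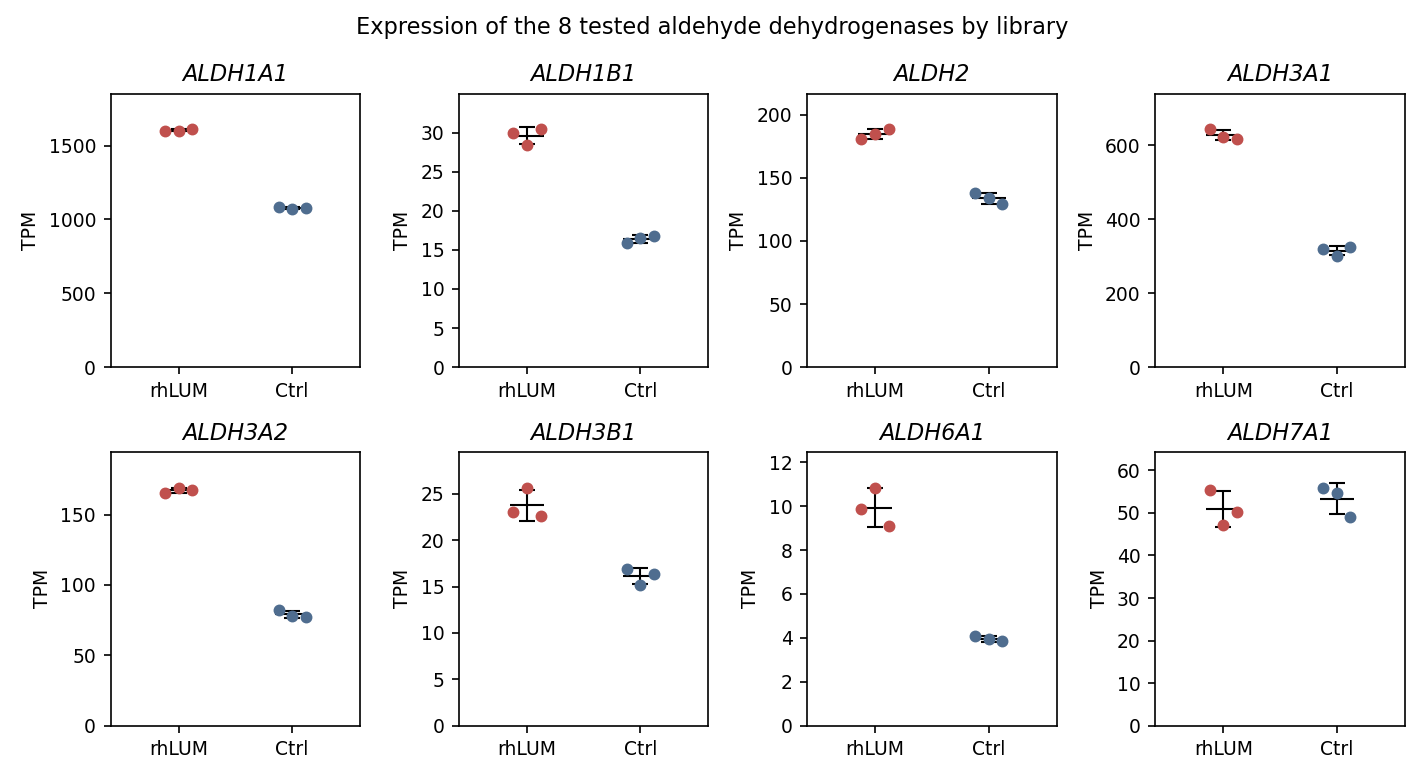
TPM (vertical axes, from 0) of the 8 tested members in each library, with rhLUM libraries on the left and Ctrl libraries on the right of each panel. Points are libraries A to C from left to right, and the bar is the mean with its SD (n = 3). In 7 panels all rhLUM points lie above all Ctrl points, and in the panel of ALDH7A1 they overlap.

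ALDH6A1 encodes the mitochondrial methylmalonate semialdehyde dehydrogenase of valine and thymine breakdown. It lies on chromosome 14 at 74056850 to 74084493 (GRCh38, minus strand). It had 9.85, 10.8 and 9.09 TPM in rhLUM A, B and C, against 4.10, 3.95 and 3.84 TPM in Ctrl A, B and C. This was the largest log2 fold change of the 8 tested members, 1.14 (SE 0.08, limma adjusted p = 1.66e-05), and the groups did not overlap. BBOF1 lies on the opposite strand, and 670 of the 6680 exon bases annotated for ALDH6A1 also belong to it. The use of strand in counting is not given, so reads of the shared bases cannot be told apart. BBOF1 itself had 5.80, 9.12 and 8.55 TPM in rhLUM, against 9.54, 8.17 and 9.83 TPM in Ctrl libraries (log2 fold change -0.22, limma adjusted p = 0.243).

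ALDH7A1, or antiquitin, acts in lysine breakdown and on betaine aldehyde. It lies on chromosome 5 at 126531200 to 126595418 (GRCh38, minus strand). It had 55.5, 47.2 and 50.1 TPM in rhLUM A, B and C, against 55.9, 54.8 and 49.2 TPM in Ctrl A, B and C. The groups overlapped, and the log2 fold change was -0.06 with a 95% interval of -0.24 to 0.11 (limma adjusted p = 0.457). This value depends on the scaling: after median-of-ratios scaling ALDH7A1 was called lower, at -0.23 (limma adjusted p = 0.0277), after upper quartile scaling at -0.41 (adjusted p = 0.00119) and after the length and GC correction at -0.42 (adjusted p = 0.00152). Its ratio to ALDH1A1 within a library was 0.0295 to 0.0347 in rhLUM libraries and 0.0456 to 0.0516 in Ctrl libraries, without overlap. Its processed pseudogene copy ALDH7A1P1 was at 0.04 to 0.19 TPM in rhLUM and 0.04 to 0.07 TPM in Ctrl libraries.

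ALDH1L1, the cytosolic enzyme that oxidises formyltetrahydrofolate and so removes one-carbon units from the folate pool, was listed at 0.03, 0 and 0 TPM in rhLUM A, B and C and at 0.02, 0 and 0 TPM in Ctrl A, B and C. A low listed value need not mean a silent gene, since MTHFD2, a folate enzyme on in most dividing cells, was listed at 0 to 0.12 TPM in rhLUM and at 0 to 0.06 TPM in Ctrl libraries. MTHFD2 was picked out after its values were seen. ALDH1L2, the mitochondrial counterpart of ALDH1L1 and not among the 10 members, had 4.58, 4.26 and 3.38 TPM in rhLUM, against 1.99, 1.86 and 1.56 TPM in Ctrl libraries. It rose by 0.85 on the log2 scale (SE 0.13, limma adjusted p = 9.06e-04).

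Of the 9 human ALDH genes outside the 10 members 7 were tested: 5 rose, 1 fell and 1, ALDH1A2, did not pass. Of all genes tested 44.5% were called higher and 22.3% lower. After median-of-ratios scaling, and after upper quartile scaling, 4 of these ALDH genes were called higher and 1 lower, where the shares over all genes also differ. Besides ALDH1L2, the rises were ALDH4A1 (log2 fold change 0.94) of proline breakdown, ALDH18A1 (0.56) of proline synthesis, ALDH5A1 (0.54), the succinic semialdehyde dehydrogenase of GABA breakdown, and ALDH9A1 (0.21) of carnitine synthesis. The call of ALDH9A1 was lost after median-of-ratios scaling (0.05, adjusted p = 0.468), and after upper quartile scaling its sign turned (-0.14, adjusted p = 0.0706). ALDH16A1 fell by 0.32 on the log2 scale, to 14.3 ± 0.92 TPM in rhLUM, against 18.1 ± 0.52 TPM in Ctrl tumours (SD, n = 3 each, limma adjusted p = 0.00251). ALDH8A1, which acts in tryptophan breakdown, was under the filter, at 0.04 to 0.13 TPM in rhLUM and 0.30 to 0.71 TPM in Ctrl libraries, and without the filter it was called lower (log2 fold change -0.45, limma adjusted p = 0.0227).

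**Figure D2:**
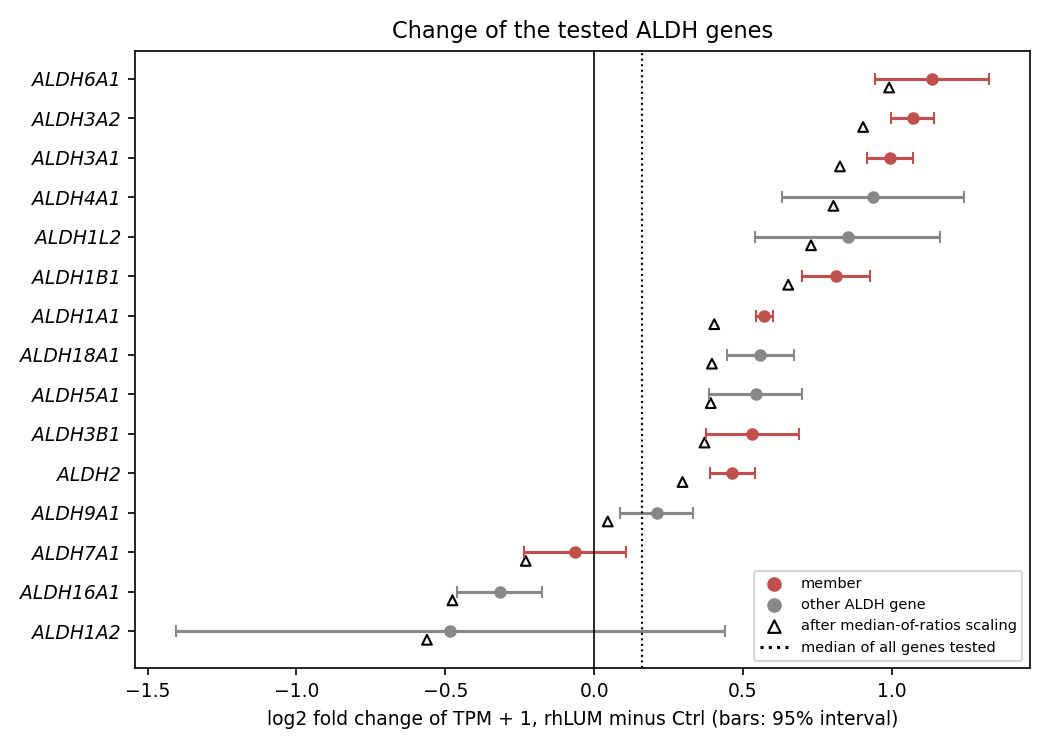
Log2 fold changes of TPM + 1, rhLUM minus Ctrl (horizontal axis), of the 15 tested ALDH genes, with 95% intervals from limma, members in red and other ALDH genes in grey. Open triangles give the value after median-of-ratios scaling and the dotted line is the median of all genes tested, 0.16. The triangles lie to the left of the circles, and the 7 members that rose stay above 0 under both.

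Summed over all 19 ALDH genes, the family had 2834, 2815 and 2831 TPM in rhLUM A, B and C, against 1823, 1778 and 1801 TPM in Ctrl A, B and C. The 10 members held 2697 ± 8.10 TPM of this in rhLUM and 1695 ± 19.3 TPM in Ctrl tumours (SD, n = 3 each). ALDH1A1 alone made up 56.7 ± 0.31% of the summed TPM in rhLUM and 59.9 ± 0.45% in Ctrl tumours. ALDH3A1 made up 22.2 ± 0.45% in rhLUM and 17.5 ± 0.55% in Ctrl tumours, and ALDH3A2 5.92 ± 0.088% in rhLUM and 4.39 ± 0.097% in Ctrl tumours. The share of ALDH7A1 was 1.80 ± 0.14% in rhLUM and 2.96 ± 0.20% in Ctrl tumours. For these 4 genes the shares of the 3 rhLUM libraries did not overlap those of the 3 Ctrl libraries.

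Set against ALDH1A1 within the same library, the members did not keep a constant proportion. The ratio to ALDH1A1 was 0.383 to 0.403 in rhLUM and 0.280 to 0.301 in Ctrl libraries for ALDH3A1, and 0.103 to 0.106 in rhLUM and 0.0718 to 0.0756 in Ctrl libraries for ALDH3A2. For ALDH6A1 it was 0.0056 to 0.0068 in rhLUM and 0.0036 to 0.0038 in Ctrl libraries. For ALDH2 it was lower with rhLUM, 0.113 to 0.117 in rhLUM and 0.120 to 0.127 in Ctrl libraries. For ALDH3B1 the ranges overlapped, at 0.0140 to 0.0160 in rhLUM and 0.0141 to 0.0156 in Ctrl libraries.

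**Figure D3:**
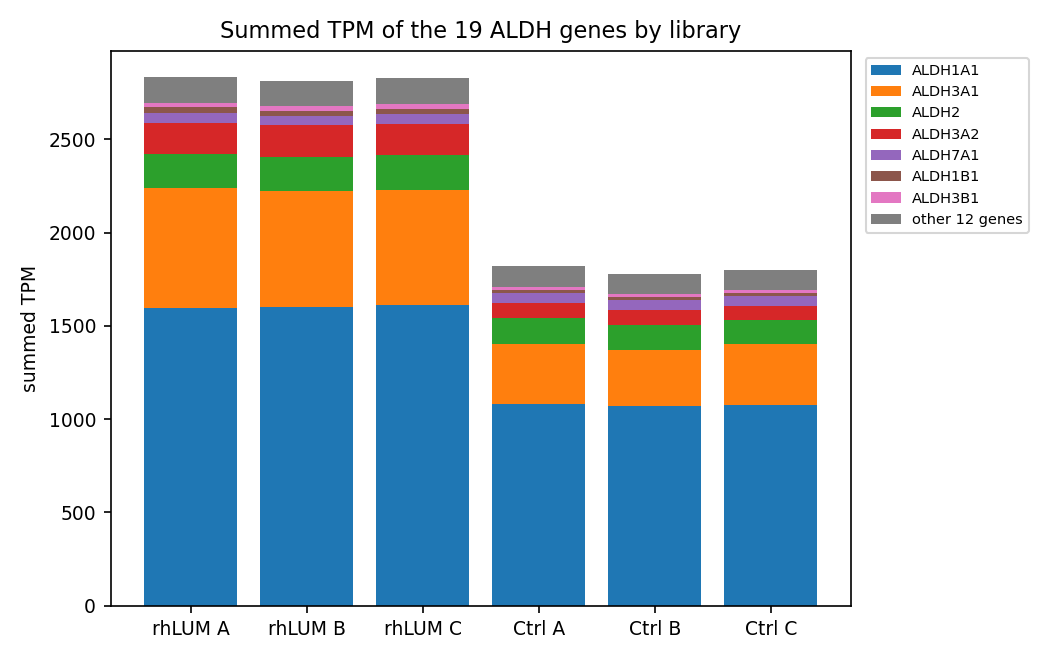
Summed TPM of the 19 ALDH genes (vertical axis, from 0) in each library, stacked by gene, with the 3 rhLUM libraries left of the 3 Ctrl libraries. The stacks reach 2815 to 2834 TPM in rhLUM and 1778 to 1823 TPM in Ctrl libraries, and ALDH1A1 is the largest segment in each.

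Genes that act beside these enzymes were listed by pathway, and their counts on TPM as deposited are read against the 44.5% and 22.3% of all genes. Counts after another scaling have another background. After median-of-ratios scaling 5076 of 14786 genes were called higher and 4561 lower. After upper quartile scaling 3522 of 14871 were called higher and 6250 lower. Retinoid metabolism and signalling, around ALDH1A1, went both ways: of 24 tested genes 9 rose and 9 fell (8 and 12 after median-of-ratios scaling, 4 and 12 after upper quartile scaling), with a median log2 fold change of 0.05. CRABP2, which carries retinoic acid to its nuclear receptors, was at 18.0 ± 0.85 TPM in rhLUM and 68.9 ± 2.95 TPM in Ctrl tumours (log2 fold change -1.88, limma adjusted p = 2.68e-07). STRA6, the receptor for retinol-binding protein, fell by 1.70 and TGM2, a transglutaminase induced by retinoic acid, by 1.34 on the log2 scale. DHRS9, a short-chain dehydrogenase that can oxidise retinol, rose by 0.97.

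Some alcohol dehydrogenases make aldehydes that ALDH2 removes. Of 4 tested genes of this family ADH1C (0.39) and ADH5 (0.13) rose and none fell, with a median of 0.18 (1 higher and 0 lower after median-of-ratios scaling, but 0 higher and 2 lower after upper quartile scaling). ADH1C shares much sequence with its neighbours ADH1A and ADH1B. Of 13 aldehyde and ketone reductases 9 rose and 2 fell (8 and 4 after median-of-ratios scaling, 8 and 5 after upper quartile scaling), with a median of 0.48. AKR1C1 (0.98), AKR1B10 (0.48), PTGR1 (0.46) and CBR1 (0.60) rose, and AKR1B1 (-0.27) and AKR1A1 (-0.46) fell. Close paralogs of AKR1B10 and AKR1C1 make their values uncertain. For the alcohol dehydrogenases the count of rises was 1 without rhLUM B, without rhLUM C or without Ctrl C, and on rescaling without mitochondrial genes. With limma without the trend, and with the length and GC correction, 1 was called higher and 1 lower. Without a filter 2 were called higher and 1 lower, and with the replicate block 3 were called higher and 0 lower.

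ALDH3A1 is a known target of the aryl hydrocarbon receptor. The list of this receptor holds AHR, its partner ARNT and target genes. Of its 6 tested genes 5 rose, AHR and ARNT among them, and 1 fell (5 and 1 after median-of-ratios scaling, 4 and 1 after upper quartile scaling), with a median of 0.59. AHR itself was at 93.7 ± 5.01 TPM in rhLUM and 40.4 ± 1.51 TPM in Ctrl tumours (SD, n = 3 each), a log2 fold change of 1.19 (limma adjusted p = 1.37e-06). NQO1, which also answers to NRF2, rose by 0.72 and UGT1A6, which shares exons with the other genes of its cluster, by 0.57. CYP1B1 fell, with 4.57 ± 0.22 TPM in rhLUM and 23.6 ± 0.89 TPM in Ctrl tumours (log2 fold change -2.14, limma adjusted p = 2.88e-07). CYP1A1 and CYP1A2, the best known targets of the receptor, were listed at 0 in all 6 libraries.

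Around ALDH6A1, 16 of 21 tested genes of branched-chain amino acid breakdown rose and 2 fell (13 and 4 after median-of-ratios scaling, and 8 and 5 after upper quartile scaling), with a median of 0.36. DLD (0.95) and BCKDHA (1.07) of the branched-chain ketoacid dehydrogenase, IVD (0.84) and MCCC2 (0.53) of leucine breakdown rose, while ACAD8 (-0.41) of valine breakdown and MCCC1 (-0.23), the partner subunit of MCCC2, fell. Around ALDH3A2, 9 of 12 tested genes of long-chain aldehyde sources and their relatives rose and 1, GNPAT (-0.40), fell (7 and 2 after median-of-ratios scaling, 6 and 2 after upper quartile scaling), with a median of 0.49. These rises included AGPS (0.97) of ether lipid synthesis, SGPL1 (1.04), the sphingosine phosphate lyase that releases hexadecenal, PHYH (0.75) of phytanic acid breakdown and CYP4F11 (0.78), a fatty acid hydroxylase.

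Around ALDH1L1, 8 of 16 folate and one-carbon genes rose and 5 fell (5 and 5 after median-of-ratios scaling, 2 and 7 after upper quartile scaling), with a median of 0.13. SHMT2 (0.52), the mitochondrial serine hydroxymethyltransferase, rose, and GCSH (-0.43) and MTHFD2L (-0.57) fell. Around ALDH7A1, 4 of 9 genes of lysine and choline degradation rose and none fell (1 and 1 after either median-of-ratios or upper quartile scaling), with a median of 0.23. These were DMGDH (1.09) of choline breakdown, and AASS (0.50), GCDH (0.34) and DHTKD1 (0.31) of lysine breakdown. Without rhLUM A 2 of these genes were called higher, and without rhLUM C 1 gene of the list was called lower.

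**Figure D4:**
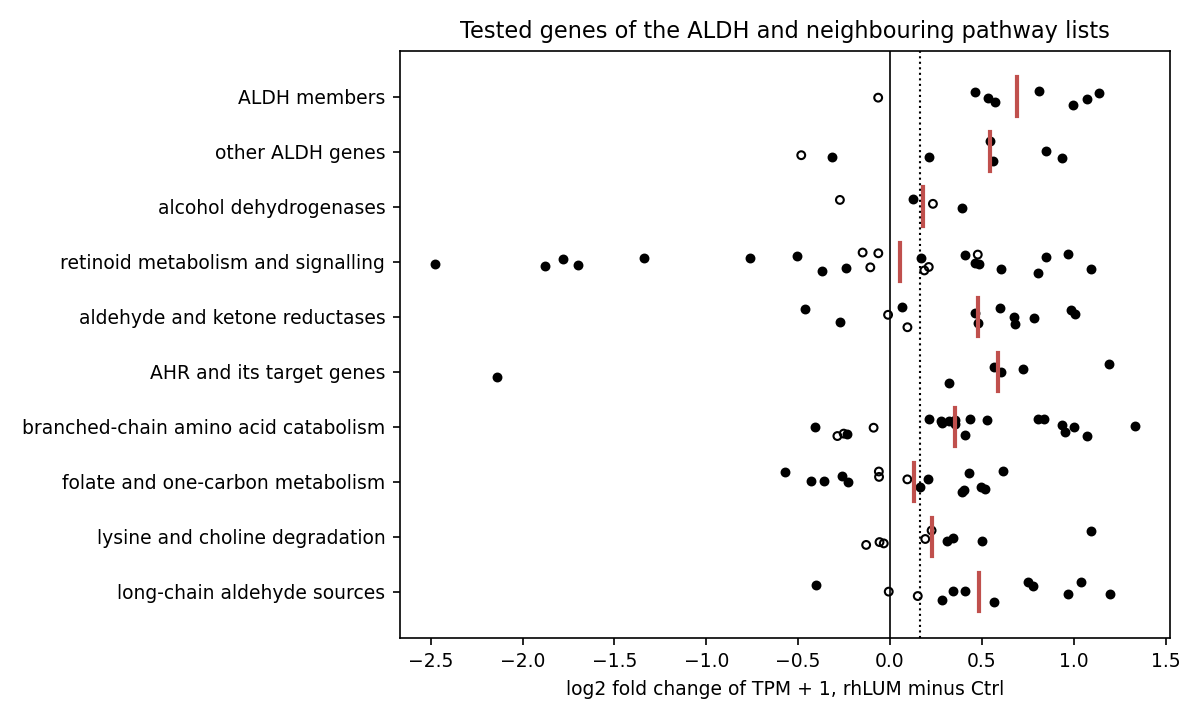
Log2 fold changes of TPM + 1, rhLUM minus Ctrl (horizontal axis), of the tested genes of the 10 members, of the other ALDH genes and of 8 neighbouring pathways. Filled points passed the test and open points did not, red bars are medians, and the dotted line is the median of all genes tested, 0.16. The members' median is 0.69 and that of the retinoid genes, which lie on both sides of 0, is 0.05.

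The labelled tissue was checked against markers, whose counts are on TPM as deposited. Of all genes tested there, 44.5% were called higher and 22.3% lower, and the markers were not counted after another scaling. Of 13 hepatocyte and liver cancer markers 11 were tested, of which 8 rose and 1 fell, and the summed level of the 13 was 5077 to 5125 TPM in rhLUM and 2801 to 2824 TPM in Ctrl libraries. Most of this sum was 2 keratins. Mean KRT8 was 2474 TPM in rhLUM and 1060 TPM in Ctrl tumours, and mean KRT18 was 1150 and 901.1 TPM. SERPINA1 fell, with means of 207.9 TPM in rhLUM and 379.5 TPM in Ctrl tumours. TTR rose from a low level (5.65 and 2.30 TPM), and APOA1 was under the filter (1.21 and 0.32 TPM). Albumin (ALB) was at 825 ± 15.4 TPM in rhLUM and 289 ± 3.08 TPM in Ctrl tumours (SD, n = 3 each), while GPC3 was near 0 (0.06 to 0.29 TPM in rhLUM and 0.04 to 0.15 TPM in Ctrl libraries). The summed level of 6 endothelial markers was 26.9 to 31.8 TPM in rhLUM and 21.6 to 23.0 TPM in Ctrl libraries, that of 8 fibroblast and pericyte markers 10.0 to 13.7 TPM in rhLUM and 14.4 to 15.4 TPM in Ctrl libraries, and that of 5 erythroid and adipocyte markers 1.99 to 3.10 TPM in rhLUM and 3.29 to 4.97 TPM in Ctrl libraries. The sum of 8 leukocyte markers was 299 to 304 TPM in rhLUM and 214 to 216 TPM in Ctrl libraries, nearly all of it LYZ and CD68, with PTPRC, which defines leukocytes, at 0.16 to 0.23 TPM in rhLUM and 0.03 to 0.23 TPM in Ctrl libraries, and MPO and ADIPOQ at 0. Most of the endothelial sum was PECAM1, at 25.3 ± 2.43 TPM in rhLUM and 16.4 ± 0.285 TPM in Ctrl tumours (SD, n = 3 each), which rose. CDH5, the cadherin of endothelial junctions, fell, with 0.45 ± 0.053 TPM in rhLUM and 3.10 ± 0.344 TPM in Ctrl tumours (SD, n = 3 each; log2 fold change -1.50, limma adjusted p = 6.00e-05), and VWF and EMCN were at 0 to 0.02 TPM in rhLUM and 0 to 0.26 TPM in Ctrl libraries. Among the fibroblast and pericyte markers COL1A1 rose (0.51) and DCN, a matrix proteoglycan, fell, with 1.26 ± 0.316 TPM in rhLUM and 7.96 ± 0.351 TPM in Ctrl tumours (SD, n = 3 each; log2 fold change -1.99, limma adjusted p = 8.21e-06), while PDGFRB was at 0.11 to 0.48 TPM in rhLUM and 0 to 0.22 TPM in Ctrl libraries. No other tested gene of the 3 endothelial and 4 fibroblast and pericyte genes passed, all 3 leukocyte genes rose, and the 1 erythroid and adipocyte gene did not pass. These are values of human genes in tumours of a human line grown in a host animal, and removal of host reads is not stated. The endothelial, fibroblast and blood cell marker sums therefore do not measure the host's cells. The part of other cells in the ALDH values was not tested, and in bulk tumours fewer cells of a type and less RNA per cell cannot be told apart. Mitochondrially encoded genes took 14.4 ± 0.10% of TPM in rhLUM and 20.6 ± 0.078% in Ctrl tumours, and the 7 members stayed called higher on rescaling without these genes.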

How the data were processed

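The authors deposited 1 table of TPM for each library, named so per the file headers, with 60725 rows and a symbol in each. STAR 2.7.8 and RSEM 1.2.31 are named, with the build GRCh38, per the submitters' processing notes. Per the labels' protocols, poly-A RNA was sequenced in paired reads of 151 bases. The sources used here do not give the annotation release, the strand setting or any removal of host reads. TPM keeps no depth, so the depth is unknown and no counting interval is given. A total of 2210 rows under 313 shared symbols were left out. On log2(TPM + 1) of genes whose mean reached 1 TPM, limma (version 3.58.1, R version 4.3.3) compared rhLUM with Ctrl, two-sided, with the trend option, no covariate and 4 residual degrees of freedom. The step was tested on simulated data in which few genes changed, equally in both directions, so that test does not bear on the scaling of the libraries. The pseudocount of 1 understates changes of low genes. Members and gene lists were chosen with earlier results of these data known. Up to 4 called genes of each list with the smallest p are named, with those against the list's majority where there were 2 or fewer; some genes of the lists are not reported here by name. Coordinates came from GENCODE release 29 (GRCh38), matched by symbol. The alternatives were other scalings, pseudocount, filters, shared symbols summed, limma without the trend, a replicate block and leaving out each library. A correction for length and GC content (loess, 86.8% of tested genes) was added after seeing the data.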

Additional observations from a re-analysis of the deposited data

How the results depend on the processing

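The 7 members that rose were called higher under all 16 alternatives run, and their highest adjusted p was 0.0352. The smallest log2 fold changes were 0.22 for ALDH1A1, 0.47 for ALDH1B1, 0.64 for ALDH3A1, 0.72 for ALDH3A2 and 0.19 for ALDH3B1, after upper quartile scaling, and 0.09 for ALDH2 and 0.75 for ALDH6A1 with the correction for length and GC content, which was chosen after seeing the data. The count of members called lower was 1, ALDH7A1, after median-of-ratios scaling, after upper quartile scaling and after that correction. Upper quartile scaling left 3522 of all genes higher and 6250 lower. It turned ALDH9A1 to -0.14, and the cause of these changes was not tested. The call of ALDH9A1 was also lost after median-of-ratios scaling (0.05), without mitochondrial genes (0.11) and with the correction (0.04). Of all calls 66.6% were higher as deposited, against 52.7% after median-of-ratios scaling, 36.0% after upper quartile scaling, 57.7% on rescaling without mitochondrial genes and 57.2% after the correction. Median-of-ratios scaling moved the median of all genes by -0.15 on the log2 scale. Libraries with the same letter did not deviate together (correlations of 0.03, -0.02 and 0.08 for A, B and C), and with the replicate block the count of members called higher was 7, as without it. Without a filter, ALDH1A3 and ALDH1L1 did not pass (adjusted p = 0.462 and 0.917), and ALDH8A1 was called lower (-0.45, adjusted p = 0.0227), which makes 2 of the other ALDH genes lower. TPM keeps no depth, so what the depth of the libraries limits is unknown.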
